A study of Xenopus laevis with 4 samples.

Results

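Germline and meiosis genes were examined for methylated DNA in early embryos of the frog Xenopus laevis. The genes were taken from 39 symbol stems, and a protein-coding gene of the RefSeq annotation of genome version 10.1 was a member if its symbol was a listed stem, alone or ending in .L or .S. Of the 39 stems, 28 were found, as 32 of the 34461 protein-coding genes on the 18 chromosomes. The 11 stems without a gene of that symbol were piwil1, tdrd9, sycp1, sycp2, syce1, syce3, hormad2, zp3, meioc, tex14 and tex15, and genes that the annotation holds under other names were not looked for. The rule used symbols only, and the list of stems was drawn up with earlier results of these data known. DNA methylation had been profiled by MBD-seq, in which the fusion protein H6-GST-MBD, whose MBD domain binds methylated CpG, pulls down DNA fragments for sequencing. The series holds 2 MBD capture libraries and 2 Input libraries, each from 250 whole wild-type embryos pooled at the 256-cell stage, 4.5 h after fertilization and before zygotic genome activation (ZGA). Since whole embryos were pooled, germ cell precursors and all other cells contributed to each library together. There is no second condition, and the germline genes were therefore set beside other genes of the same libraries.

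Germ cells of Xenopus are set apart by germ plasm, a region of the egg rich in RNAs and RNA-binding proteins that the primordial germ cells inherit. Later, Piwi proteins loaded with piRNAs silence transposons in these cells, and at meiosis homologous chromosomes pair along the synaptonemal complex and exchange DNA through programmed double-strand breaks. In mouse, several of these genes, Dazl, Ddx4 and Sycp3 among them, carry promoters that are methylated in somatic cells and lose this methylation in primordial germ cells.

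The measurement was a list of peaks, regions of captured DNA enriched over Input, for each of the 2 MBD capture libraries. Replicate 1 had 17645240 tags and 131303 peaks, with 22.16% of tags in peaks (Wilson 95% confidence interval 22.14% to 22.18%), and replicate 2 had 23909019 tags and 222771 peaks, with 42.27% of tags in peaks (42.25% to 42.29%). These intervals cover counting error only. Replicate 2 thus had more tags and more peaks, and each value below is given for both replicates. A gene was scored over its annotated body with 1 kb added at each end. The gene models used here gave both ends of a gene but not its strand. The end with the lower coordinate and the end with the upper coordinate are therefore named as such. Which of them holds the transcription start site was not known here. Where no peak is listed, enrichment did not reach the caller's limit, which does not show that the DNA lacked methylation.

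Most germline genes held an MBD-seq peak somewhere along their length. A peak was found in 23 of 32 genes (71.9%) in replicate 1, against 54.8% of all coding genes, and in 28 of 32 (87.5%) in replicate 2, against 68.7% of all coding genes. No gene had a peak in replicate 1 alone, so the genes with a peak in both replicates were also 23 (71.9%), against 50.1% of all coding genes. The germline genes were also longer than most. Their median length was 36.5 kb, against 17.2 kb for all coding genes, so that 72.9% of coding genes were shorter than the median germline gene. For each germline gene the 500 coding genes nearest in length were therefore taken as its comparison. Among these, the share with a peak was 65.9% for replicate 1, 78.5% for replicate 2 and 62.4% for both. The share of germline genes with a peak in both replicates was thus 1.15 times that of genes of their length, a difference that was not tested.

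**Figure D1:**
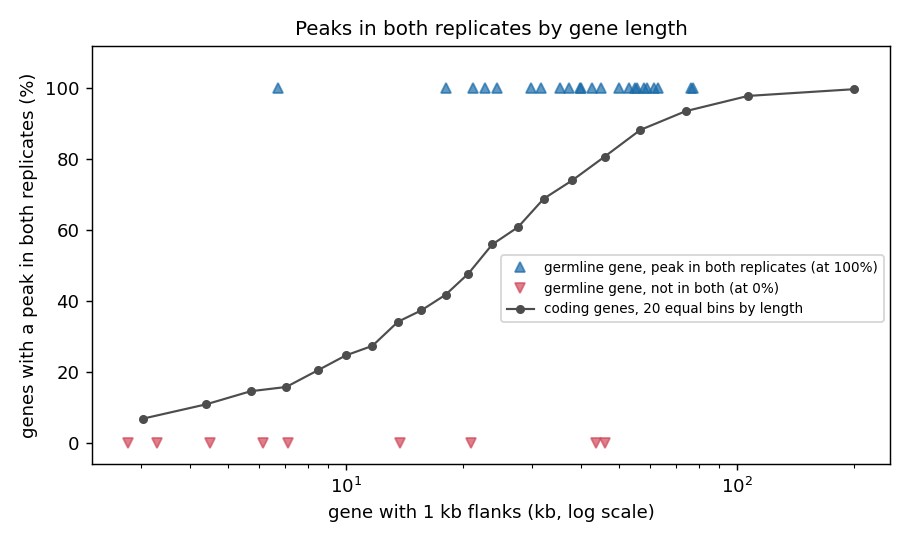
Share of genes with a peak in both replicates against the length of the gene with its 1 kb flanks (log axis). The line joins 20 equal bins of all coding genes, which run from 6.84% to 99.8%; upward triangles are the 23 germline genes with a peak in both replicates and downward triangles the others. Of the 6 germline genes of at most 6 kb, 1 has a peak in both replicates, and of the 26 longer ones 22 do.

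The share of sequence in peaks gave a graded value. Peaks covered 2.68% of the span of a germline gene on average in replicate 1, against 2.39% for genes of like length and 2.3% for all coding genes. In replicate 2 the mean was 5.6% for germline genes, against 4.5% for genes of like length and 4.37% for all coding genes. The medians over germline genes were 2.28% and 5.22% in replicates 1 and 2, against 1.62% and 3.65% for genes of like length. Averaged over replicates, the germline genes had 4.14% ± 2.06 and genes of like length 3.45% ± 1.5 of their span in peaks (SD, n = 2 each). Both sets of genes had lower shares in replicate 1, so these SDs hold the difference between the libraries. Within each library the germline genes had 1.12 (replicate 1) and 1.24 (replicate 2) times the share of genes of like length, a ratio of 1.18 ± 0.0832 (SD, n = 2). The SD of this ratio holds the spread between the 2 libraries over the same 32 genes, and not the spread between genes. With 2 libraries of 1 group, no test of the difference from genes of like length was made. Single genes lay on either side, with 14 of 32 above the mean of their like-length genes in both replicates and 12 below it in both. These counts are not set beside those of other genes. Over genes of like length the mean lay above the median in both replicates, so other genes need not split evenly around it.

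**Figure D2:**
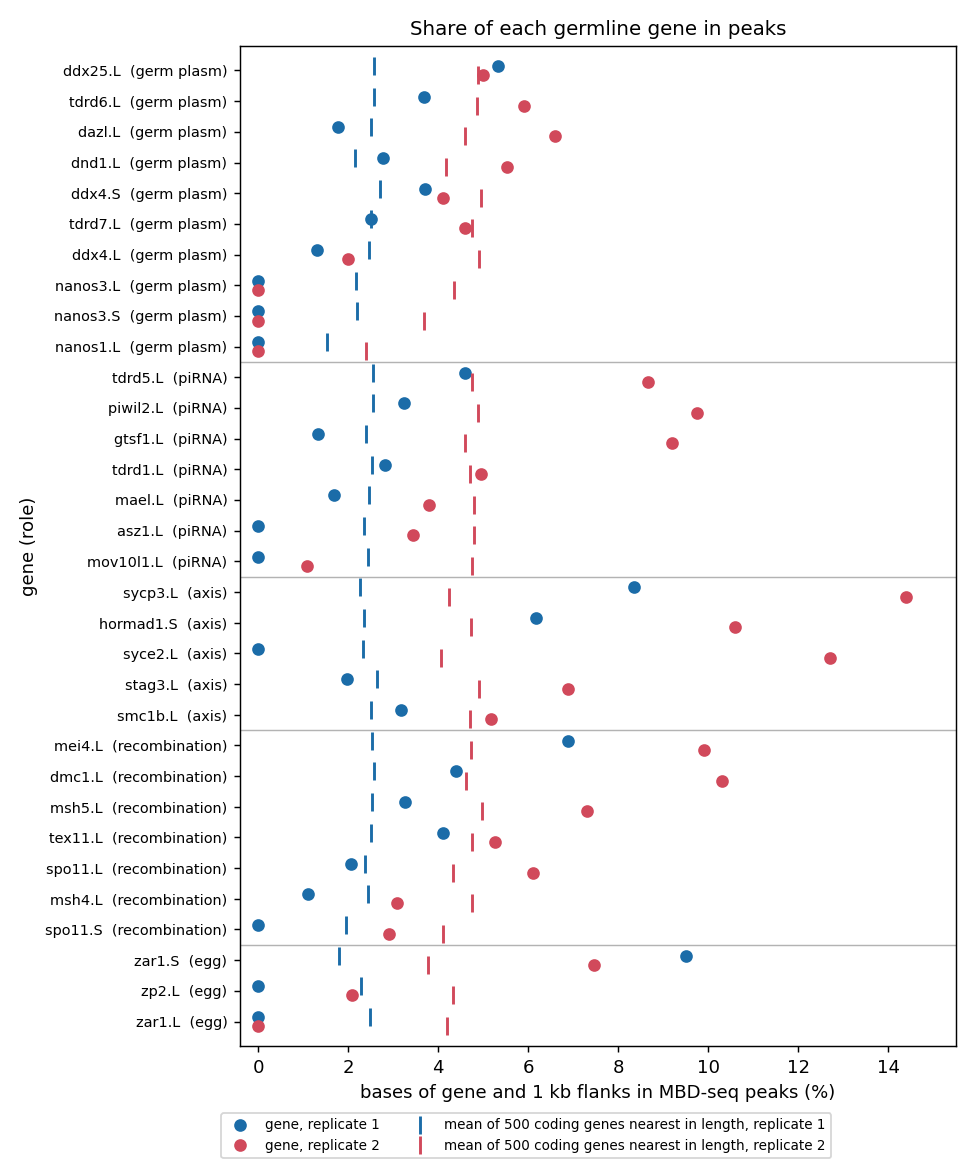
Percent of bases of each germline gene and its 1 kb flanks in peaks, with genes grouped by role from top to bottom. Dots are the gene in replicate 1 (blue) and replicate 2 (red), and vertical ticks the mean of the 500 coding genes nearest in length in the same replicate; sycp3.L lies farthest to the right in replicate 2, at 14.4%.

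Peaks of the 2 libraries fell on the same places in many of these genes. In 19 of 32 genes (59.4%) a replicate 1 peak overlapped a replicate 2 peak by 1 bp or more, against 51.4% of genes of like length, or 16.4 of 32, and 42.4% of all coding genes. Counted by peak, 38 of the 56 in germline genes in replicate 1 (67.9%) met one of replicate 2, against 61.8% of the whole replicate 1 list. Of the 103 in replicate 2, 35 (34.0%) met one of replicate 1, against 36.2% of the whole replicate 2 list. In 4 genes, ddx4.L, zar1.S, dazl.L and spo11.L, both replicates had peaks but none coincided, so 23 genes had a peak in both and 19 an overlap. Over all 34461 coding genes these numbers were 17268 and 14613, so peaks that do not coincide are not particular to this list. Most peaks were of the minimal kind, as in the whole lists. In replicate 1, 39 of 56 (69.6%) had the commonest width of 501 bp, against 67.4% of all peaks. In replicate 2 it was 62 of 103 (60.2%), against 61.5% of all peaks. The widest peaks in germline genes had 2290 bp in replicate 1, in mei4.L, and 2691 bp in replicate 2, in tdrd5.L.

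Genes for germ plasm and primordial germ cell proteins were represented by all 8 listed stems and 10 genes. Of these, 7 had a peak in both replicates, beside 5.66 for genes of their length, and none of the 3 nanos genes had one. Peaks took up 2.11% of their span on average in the first library and 3.38% in the second, against 2.34% and 4.36% for genes of like length. The group thus lay slightly below such genes in both replicates, with its 3 nanos genes at 0% in both. The other 7 genes all had peaks, while genes of like length include some without any. The 7 genes alone are therefore not set beside them. dazl.L (6L, 45748958 to 45782377), which encodes an RNA-binding protein of germ plasm, had a single peak in each replicate, both inside the gene and apart from each other. The replicate 1 peak spanned 632 bp and began 9731 bp inside the lower end, and the replicate 2 peak spanned 2343 bp and began 5849 bp inside it. Neither reached within 1 kb of an end. dnd1.L, an RNA-binding protein required by primordial germ cells, had 1 peak in replicate 1 and 2 in replicate 2, and the peaks 5447 and 5457 bp from its upper end coincided. tdrd6.L and tdrd7.L encode tudor proteins of germ granules. tdrd6.L had 4 and 7 peaks in replicates 1 and 2 and tdrd7.L 2 and 3, of which 2 of each replicate 1 list recurred in replicate 2.

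The Vasa helicase gene ddx4 was present on both subgenomes, with 1.31% and 1.99% of ddx4.L in peaks and 3.72% and 4.12% of ddx4.S, in replicates 1 and 2. Genes of like length had 2.46% and 4.91% for ddx4.L, and 2.71% and 4.96% for ddx4.S. ddx4.S (1S, 179916428 to 179991704) had 5 peaks in replicate 1 and 3 in replicate 2, and a peak of 2055 bp in replicate 2, which began 59386 bp from the lower end, overlapped adjacent peaks of 501 and 870 bp in replicate 1. At ddx4.L (1L, 208433023 to 208488826) the ends differed between the libraries, with a peak 548 bp inside the lower end in replicate 1 only and a peak across the upper end in replicate 2 only. ddx25.L, the gene of the germ plasm helicase known in Xenopus as DEADSouth, had 4 peaks in each replicate and 5.34% and 5.0% of its span in peaks.

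The nanos genes, which encode translational repressors of primordial germ cells, were free of peaks in both replicates. They are also short, at 779 bp for nanos1.L, 1281 bp for nanos3.L and 2501 bp for nanos3.S, and among genes of like length a peak was listed for 10.2%, 12.2% and 15.8% in replicate 1, and for 14.4%, 22.2% and 24.4% in the other library. The absence of a peak is thus the usual state of coding genes this short. The nearest peaks lay 7445 bp (replicate 1) and 3710 bp (replicate 2) from nanos1.L, 16831 and 2895 bp from nanos3.L, and 3813 and 1753 bp from nanos3.S.

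Genes of the piRNA pathway were found for 7 of 9 stems. All 7 had a peak in replicate 2 and 5 in replicate 1. A peak in both replicates was found in 5, beside 5.58 for genes of their length. Of the genes nearest in length to each, 67.6% to 93.6% had a peak in replicate 1 and 87.0% to 99.2% in replicate 2. Peaks covered on average 1.96% of their span in replicate 1 and 5.84% in replicate 2, against 2.47% and 4.75%, so the 2 replicates lay on opposite sides of genes of like length. piwil2.L, which encodes a Piwi protein that binds piRNAs, carried 9 peaks in replicate 2, more than any other germline gene, and 4 in replicate 1, and all 4 coincided with replicate 2 peaks. The replicate 1 peaks that began 25998 and 27199 bp from the lower end overlapped a single peak of 1620 bp in replicate 2. tdrd5.L, a tudor protein gene, had 4.60% and 8.67% of its span in peaks, including the peak of 2691 bp that began 32736 bp from the lower end in replicate 2 and covered a replicate 1 peak of 949 bp. gtsf1.L, a Piwi cofactor gene, differed most between the libraries in this group, with 1 peak (1.34%) in replicate 1 and 6 (9.21%) in replicate 2. tdrd1.L, also a tudor protein gene, had 3 and 5 peaks, and mael.L, the Maelstrom gene, 1 and 2. asz1.L, for a piRNA factor located at mitochondria in mouse, had no peak in replicate 1, although 79.6% of genes of its length did, and 3 in replicate 2. mov10l1.L, for a helicase of piRNA precursors, had none in replicate 1, against 83.6% of genes of its length, and 1 in replicate 2, which gave the lowest mean share of any germline gene over 6 kb (0.543%).

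Genes of the synaptonemal complex, the chromosome axis and meiotic cohesin had the highest group mean in both replicates, while the replicate 1 median was 3.18%, against 3.26% for the recombination genes. Only 5 of the 10 stems were found. Replicate 2 placed a peak in all 5 genes and replicate 1 in 4 of them, and the 4 with a peak in both stood beside 3.23 for genes of their length. Of the genes nearest in length to each, 43.0% to 95.4% had a peak in replicate 1 and 61.4% to 99.0% in replicate 2. Peaks covered 3.94% of their span on average in replicate 1 and 9.97% in replicate 2, against 2.42% and 4.53% for genes of like length. The genes of meiotic cohesin subunits had 3.18% and 5.18% (smc1b.L) and 1.97% and 6.89% (stag3.L) of their span in peaks, below sycp3.L and hormad1.S in both replicates. sycp3.L (4L, 6619160 to 6638272), which encodes a core protein of the axial and lateral elements, had the highest mean of all germline genes, at 8.36% in replicate 1 and 14.4% in replicate 2, more than 96.2% and 97.8% of the genes nearest in length. It had 3 peaks in replicate 1 and 5 in replicate 2, and 2 sites recurred, at 3254 and 3267 bp from the lower end and just inside the upper end. hormad1.S (8S, 95162150 to 95202891), for a HORMA-domain protein of the axis, had 5 and 4 peaks and 6.18% and 10.6% of its span in peaks. Replicate 1 peaks that began 10223, 12171 and 13842 bp from the lower end overlapped peaks of 501 and 2623 bp in replicate 2. syce2.L, for a central element protein, was covered to 12.7% by 3 peaks in replicate 2 and had none in replicate 1, so its high value rests on 1 library.

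Genes of meiotic recombination were found for 6 of 7 stems. All 7 genes had a peak in replicate 2, as did 40.6% to 98.4% of the genes nearest in length to each. A peak in both replicates was found in 6, beside 4.69 for genes of their length. On average 3.12% and 6.42% of their span lay in peaks in replicates 1 and 2, against 2.42% and 4.61%. mei4.L (5L, 94632180 to 94685666), for a protein needed for meiotic double-strand breaks in mouse, had 3 peaks in replicate 1, all of which recurred among its 8 peaks in replicate 2. The widest, 2290 bp in replicate 1 and 1622 bp in replicate 2, lay near the middle of the gene. All 3 replicate 1 peaks also overlapped a second annotated gene, LOC121393748, which overlaps mei4.L, so they cannot be assigned to 1 of them. dmc1.L (4L, 118309151 to 118329898), for the meiotic recombinase, had 4.40% and 10.3% of its span in peaks. Of the MutS homolog genes that act on recombination intermediates, msh5.L had 2 and 4 peaks, with 1 recurrent block of 1420 bp in replicate 1 and 2319 bp in replicate 2, and msh4.L had 1 and 2 peaks, with 1 recurrent site. tex11.L, whose mouse homolog promotes crossovers, had 3 replicate 1 peaks that all recurred among 5 in replicate 2.

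The egg coat and maternal genes were few. zp2.L, for an egg coat glycoprotein, had no peak in replicate 1 and 1 in replicate 2, 562 bp outside its lower end. zar1, a gene of oocytes that acts on maternal mRNA, differed between its copies. zar1.S (1S, 28060218 to 28064936) had 1 peak in each replicate, and since the gene is short this made up 9.50% and 7.46% of its span. Those peaks did not coincide, lying 1599 bp and 3177 bp from the lower end. zar1.L had no peak in either replicate, and the nearest lay 13605 and 13400 bp away. A peak was listed for 25.0% of genes of its length in replicate 1 and for 38.0% in replicate 2. The lack of a peak at zar1.L is thus the usual state of genes this short. Most genes of the length of zar1.S also had none in each replicate.

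Of the 28 stems, 4 had both an L and an S gene by symbol, 23 an L gene only and hormad1 an S gene only. Both copies were thus annotated under the symbol for 14.3% of germline stems, against 53.8% of the 14439 coding stems with .L or .S. Among these 4 pairs, ddx4 had peaks in both replicates on both copies, nanos3 on neither, zar1 on S alone and spo11 on L alone. Shares over all coding pairs are not given here. A peak was listed for 90.4% and 98.4% of genes of the length of ddx4.L in replicates 1 and 2. At the length of ddx4.S it was 95.4% and 98.8%, so a peak on each copy is usual at these lengths. Only at ddx4.S did a peak of replicate 1 overlap a peak of replicate 2. spo11, for the enzyme that cuts DNA at meiosis, had copies of unequal annotated length, with 22.3 kb for spo11.L and 5.12 kb for spo11.S, and the single peak of spo11.S lay 793 bp outside its lower end, in replicate 2 only. Among genes of the length of spo11.L, a peak was listed for 62.8% in replicate 1 and 81.0% in replicate 2. For spo11.S these shares were 22.8% and 40.6%. No copy pair was tested.

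Gene ends were examined next, since the study scored promoters within 1 kb of the transcription start site. In replicate 1, 7 of 32 germline genes (21.9%) had a peak within 1 kb of an end, against 17.9% of all coding genes, and in replicate 2 there were 15 (46.9%), against 30.5% of all coding genes. A peak at the same end in both replicates was found at 6 genes (18.8%), against 11.3% of all coding genes and 11.3% of genes of like length, or 3.61 of 32. The ratio to genes of like length was 1.66, which rests on 6 genes and was not tested. With a flank of 500 bp, 5 genes were in this class, beside 1.52 for genes of like length, and when only peaks wider than 501 bp were kept there was none, beside 1.03.

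**Figure D3:**
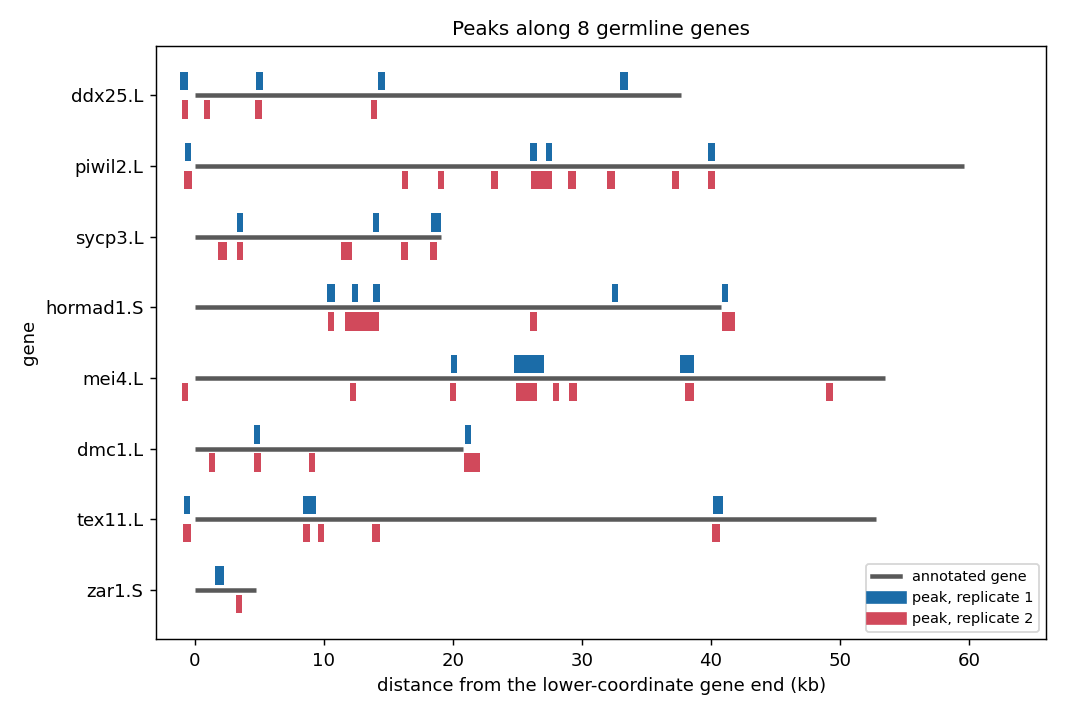
Peaks along the 6 germline genes with a peak at the same end in both replicates, with mei4.L and zar1.S, which are among the 5 genes of highest mean coverage. The x axis gives the distance from the lower-coordinate gene end in kb; the grey line is the annotated gene, boxes above it are replicate 1 peaks and boxes below it replicate 2 peaks, drawn to scale.

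These 6 genes were ddx25.L, piwil2.L, sycp3.L, hormad1.S, dmc1.L and tex11.L. At 5 of them the shared peak lay just outside the gene, as the map of peaks shows, and in each the peaks of the 2 replicates overlapped. At piwil2.L (3L, 138122682 to 138182311) it lay 278 bp outside the lower end in replicate 1 and 180 bp outside it in replicate 2. At ddx25.L (7L, 76005383 to 76043055) these distances were 518 and 520 bp from the lower end, and replicate 2 had a further peak 712 bp inside it. At tex11.L (8L, 35542359 to 35595166) they were 335 and 299 bp from the lower end. At dmc1.L the peaks lay 162 and 150 bp outside the upper end, and at hormad1.S 108 and 86 bp outside it. sycp3.L was the exception, with peaks 67 and 351 bp inside its upper end. When the order of the lists is read as a rank from strong to weak, which is an inference, the sycp3.L end peak stood at 8.27% and 7.54% of the way down and that of dmc1.L at 64.6% and 15.8%. None of these end peaks overlapped another annotated gene.

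Replicate 2 alone placed peaks at ends of further genes. tdrd6.L had them at both ends, 676 bp outside the lower and 829 bp inside the upper end, and mael.L, mei4.L, msh5.L, spo11.L, spo11.S and zp2.L had 1 each outside the gene, at 462 to 820 bp from the end. dnd1.L had 1 inside, 944 bp from its lower end. ddx4.L had the discordant ends described above. The remaining germline genes had no gene-end peak in either replicate.

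**Figure D4:**
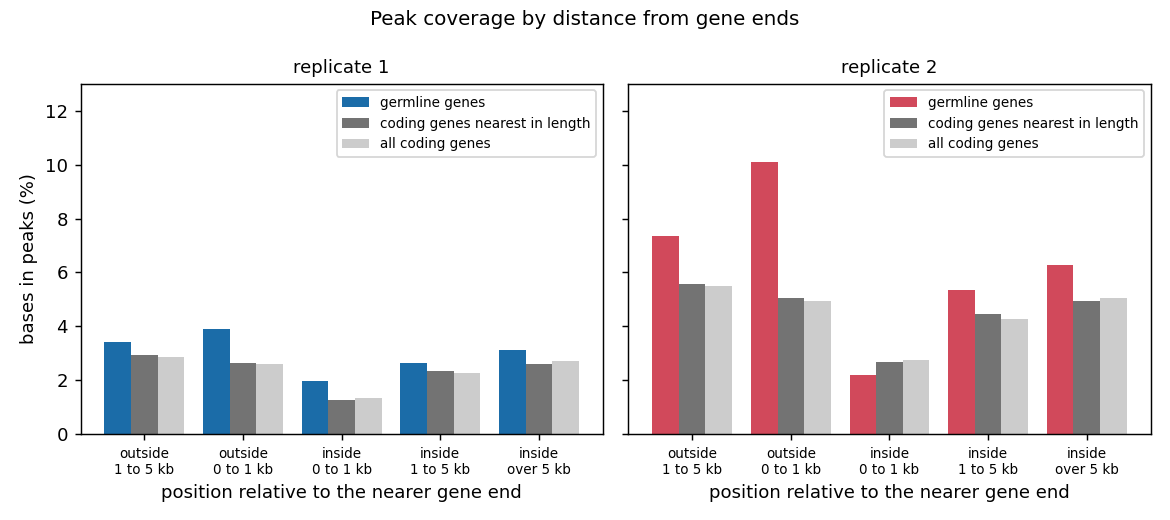
Percent of bases in peaks by position relative to the nearer gene end, in replicate 1 (left) and replicate 2 (right). Bars are the germline genes (coloured), the coding genes nearest in length (dark grey) and all coding genes (light grey); in replicate 2 the germline bar is highest in the first 1 kb outside the gene, at 10.1%, and lowest in the first 1 kb inside it, at 2.2%.

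Coverage was also profiled by position across the ends of all 32 genes. In the 1 kb outside the ends, peaks covered 3.89% of germline sequence in replicate 1 and 10.1% in replicate 2, against 2.65% and 5.05% for genes of like length. In the first 1 kb inside, they covered 1.96% and 2.2%, against 1.28% and 2.67%. Coverage was thus lower just inside than just outside the ends, in both sets of genes and both replicates. The values just inside rested on few genes. Peak sequence was there in 2 genes (6.25%) in replicate 1, against 7.61% of genes of like length, and in 5 (15.6%) in replicate 2, against 14.3%. Outside the ends, 5 genes (15.6%) had peak sequence in this 1 kb in replicate 1, against 13.1% of genes of like length, and 13 (40.6%) in replicate 2, against 22.8%, so the distance to other genes rested mainly on replicate 2. Deeper than 5 kb inside, where 26 genes reach, germline genes had 3.11% and 6.27%, against 2.62% and 4.94%, and 21 (80.8%) and 24 (92.3%) of these 26 genes had a peak there, against 65.0% and 79.2% of genes of like length.

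A second list of 85 germline stems, none of them among the 39, gave 73 genes from 55 stems. Of these, 42 (57.5%) had a peak in both replicates, against 59.3% of genes of their length, or 43.3. Their mean share in peaks was 1.97% and 3.69%, against 2.35% and 4.49%. As a whole this wider list thus lay below genes of like length, where the 32 genes lay above. Within it, 10 of 14 piRNA pathway genes had a peak in both replicates, beside 7.83 at their length. So did 15 of 23 meiotic chromosome and recombination genes, beside 15.3, and 17 of 36 germ cell and gonad factors, beside 20.1. The mean share of the germ cell and gonad factors was 1.68% and 2.52%, against 2.31% and 4.45% at their length. The meiotic genes had 2.26% and 4.78%, against 2.42% and 4.59%. The piRNA pathway genes had 2.26% and 4.9%, against 2.31% and 4.4%. The meiotic and piRNA pathway genes thus lay slightly below genes of like length in replicate 1 and above them in replicate 2. A peak at the same gene end in both replicates was found at 8 of the 73, a share near the 11.3% of all coding genes, among them piwil4.S, ddx39a.L, gdf9.S, spdya.L, mlh3.L, tdrd10.L and pms2.L. gdf9 encodes an oocyte growth factor, and mlh3 and pms2 act in DNA mismatch repair.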

How the data were processed

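MBD-seq was performed on 2 MBD capture and 2 Input libraries. Per the authors' methods and the file headers, paired-end reads were aligned to genome version 10.1 with bowtie, and HOMER 4.11 (histone style) called peaks for each replicate against its own Input, with windows of 500 bp joined below 1000 bp, a p-value of 0.001, and at least 4-fold over Input at a p-value of 0.0001. The tag threshold was 12 in replicate 1 and 15 in replicate 2. The authors deposited a score of 1 for every peak, so tag counts and enrichment per peak were not used here.

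Gene models were taken from a RefSeq table of that version (coordinates 1-based). Like-length values other than medians are means over the 500 coding genes nearest in span length to each germline gene, germline genes excluded. The like-length medians were taken over these genes pooled for all germline genes, where a gene can be counted more than once. An overlap of 1 bp counted. Members, roles and the second gene list were chosen with earlier results of these data known. Genes named with full values were those with a peak at the same end in both replicates, the 5 of highest mean coverage, up to 5 without any peak, and copies discordant between L and S. Germline genes beyond this rule were named after their values were seen. Promoter sequence was not used here, and both gene ends took the place of start sites. Alternatives were other flanks, an overlap of 200 bp, lists shortened in listing order or to wider peaks, single replicates and other comparison genes. Values of 1 gene of the second list are not reported here. No significance test was run. On a simulated peak list, the base and peak counts and the ratio of the share in peaks to genes of like length were checked. Scores over both replicates and at gene ends were not part of this check. Python 3.11.15, numpy 2.4.6, pandas 2.3.3, scipy 1.17.1 and matplotlib 3.10.9 were used.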

Additional observations from a re-analysis of the deposited data

How the results depend on the processing

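The ratios to genes of like length stayed above 1 for the share of bases in peaks and for genes with a peak in both replicates under every alternative run. All these runs draw on the same 32 genes and the same 2 libraries. They therefore do not measure how the ratios would vary with other genes or libraries. For gene ends the ratio was 3.28 with a flank of 500 bp and 0 among peaks wider than the commonest width, where 0 germline genes had such a peak, beside 1.03 for genes of like length. Germline genes with a gene-end peak numbered 11 with a flank of 2 kb, beside 6.99 for genes of like length. In the first part of the listings 15 genes had a peak in both replicates, beside 12.6 for genes of like length, and 0 homeolog pairs had peaks on both copies, and at near-equal numbers of peaks (131303 and 134118) the pairs were also 0. With wider peaks alone, 10 genes had a peak in both replicates, beside 8.89, and 1.98% of bases lay in peaks, against 1.67%. The shorter lists hold fewer peaks for all genes. Across the settings that left out 1 replicate each, genes with a peak ranged from 23 to 28, bases in peaks from 2.68% to 5.6%, genes with a gene-end peak from 7 to 15, homeolog pairs from 1 to 2, and the ratios from 1.09 to 1.11, 1.12 to 1.24 and 1.21 to 1.51. No paired analysis was possible because no result comes from a test. Germline and like-length genes were compared within each replicate. With 32 genes, and peaks of which most had the minimal width, single peaks decide the values of short genes.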

Other observations

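The sequence around the germline genes was also scored, over 100 kb on each side of the gene and its flanks. In replicate 1, 2.83% of it lay in peaks, against 2.85% around genes of like length, and in replicate 2 it was 6.04%, against 5.37%. The germline genes themselves exceeded their own surroundings in 14 of 32 cases in replicate 1 and in 17 of 32 in replicate 2. These counts are not set beside those of other genes here. Between 1 and 5 kb outside the ends, 7.34% of germline sequence lay in peaks in replicate 2, against 5.56% for genes of like length, and 3.41% against 2.95% in replicate 1. Of the 32 genes, 8 lie on chromosome 3L, and 4 share their span with another coding gene, both given without the share over all coding genes. Across the 26 germline genes over 6 kb, Spearman's rho of the share in peaks between replicates was 0.55, beside 0.53 across all coding genes in that range of length. These genes share both libraries and the same peak calling, and no p-value was computed.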
